A study of Mus musculus with 6 samples.

Results

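The genes described here act when myoblasts adhere to each other and fuse into myotubes. Of the 10 genes listed by symbol for this role, 9 had values in the FPKM files, matched through their Ensembl identifiers, out of 14548 genes in each file. They were *Mymk*, *Mymx*, *Cdh2*, *Ncam1*, *Jam2*, *Jam3*, *Myof*, *Dysf* and *Bin1*. *Cdh15* was not analysed here. The values come from RNA-seq of 3 wild-type (WT) and 3 MSTN-knockout (MSTN-KO) libraries of C2C12 cells, a mouse myoblast line that can form myotubes in culture. Both groups were grown in DMEM with fetal bovine serum, and the methods describe no induced differentiation. In the MSTN-KO cells, CRISPR/Cas9 had deleted part of *Mstn*, which encodes myostatin, a secreted inhibitor of muscle growth. The study names its MSTN-KO cells C11 and describes no other MSTN-KO line, so the effect of the deletion and other differences between this line and the WT cells cannot be told apart. The labels give the strain C11 for the WT libraries as well.

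Fusion of myoblasts proceeds from recognition and adhesion at the cell surface to the merging of membranes. Cadherins and immunoglobulin-type adhesion molecules hold the cells together, and the muscle-specific membrane proteins myomaker (*Mymk*) and myomixer (*Mymx*) then drive the merger. Ferlins are large calcium-binding proteins that act in membrane fusion and repair, and BIN1 bends membranes and takes part in forming the transverse tubules of muscle.

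*Mymx* encodes the smallest of these proteins and had the largest difference between the groups, so a coding sequence of it is shown. It was read from the GENCODE M21 transcripts of GRCm38, where it lies in the last of 2 exons at chr17:45601417-45601671 on the minus strand and holds 255 bases, or 84 codons before the stop. GENCODE M21 lists 4 coding transcripts of *Mymx*, and the longest coding part among them has 108 codons. The start and stop codons are in capitals.

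Mymx: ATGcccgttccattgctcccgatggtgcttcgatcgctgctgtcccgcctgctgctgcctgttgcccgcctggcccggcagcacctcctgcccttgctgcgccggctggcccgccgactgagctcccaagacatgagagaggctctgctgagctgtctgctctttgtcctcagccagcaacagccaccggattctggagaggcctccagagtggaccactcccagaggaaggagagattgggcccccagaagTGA

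The deposited values are FPKM, the fragments on a gene scaled by its exon length and by the mapped fragments of the library, so the absolute depth is unknown and no counting error can be given. The FPKM of a library summed to 723705 to 764524 in WT and to 856314 to 999579 in MSTN-KO, and 13340 to 13478 and 13151 to 13212 genes were above 0. Relative depth was estimated from the most common ratio between WT replicate 1 and each other library, over genes with very low values in both. For the other 5 libraries, this depth relative to WT replicate 1 was 0.860 to 1.13. The labels do not say that replicates came from separate cultures, so the p-values measure the spread between these libraries, which may be technical. *Mstn* itself was listed at 0 to 0.0399 FPKM in WT and at 0.0269 to 0.0586 FPKM in MSTN-KO, so its level does not check the labels. *Myod1*, a transcription factor that defines myoblasts, was at 90.8 to 167.5 FPKM over the 6 libraries. The endothelial and neural markers measured were under 1 FPKM in every library, and the 1 blood marker measured, *Cd68*, was at 0.702 to 2.39 FPKM and not called.

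In MSTN-KO, 6 of the 9 genes were lower than in WT and 1 was higher at a Benjamini-Hochberg adjusted p under 0.05 in limma. The 6 were *Mymk*, *Mymx*, *Cdh2*, *Ncam1*, *Jam2* and *Dysf*, and the 1 that rose was *Jam3*. *Myof* and *Bin1* did not pass the test. The fit covered the 10837 genes that reached 1 FPKM in 1 or more libraries, of which 17.7% were called in either direction, 8.96% as lower and 8.78% as higher. The 9 genes were chosen with earlier results of these data known, so their counts beside these shares are a description, not a test. The median log2 fold change of the 9 genes was -0.67, on the log2(FPKM + 1) scale, beside -0.00078 for all genes tested. All 9 genes passed the filter, but *Dysf* did so only through WT, where it was higher. With a filter on the mean of the 6 libraries instead, which leaves *Dysf* out, 5 of 8 genes were called lower. The study's methods define a DEG by a p under 0.05, taken here as unadjusted, and a change beyond 1 on the log2 scale. These criteria were applied to the limma fit made here, not to the study's own. By them, *Mymk*, *Mymx* and *Ncam1* were downregulated DEGs, against 2.3% of all genes tested. None of the 9 was an upregulated DEG, against 1.21% of all genes. The WT and MSTN-KO values did not overlap for 6 of the 9 genes, against 37.4% of all genes tested.

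**Figure D1:**
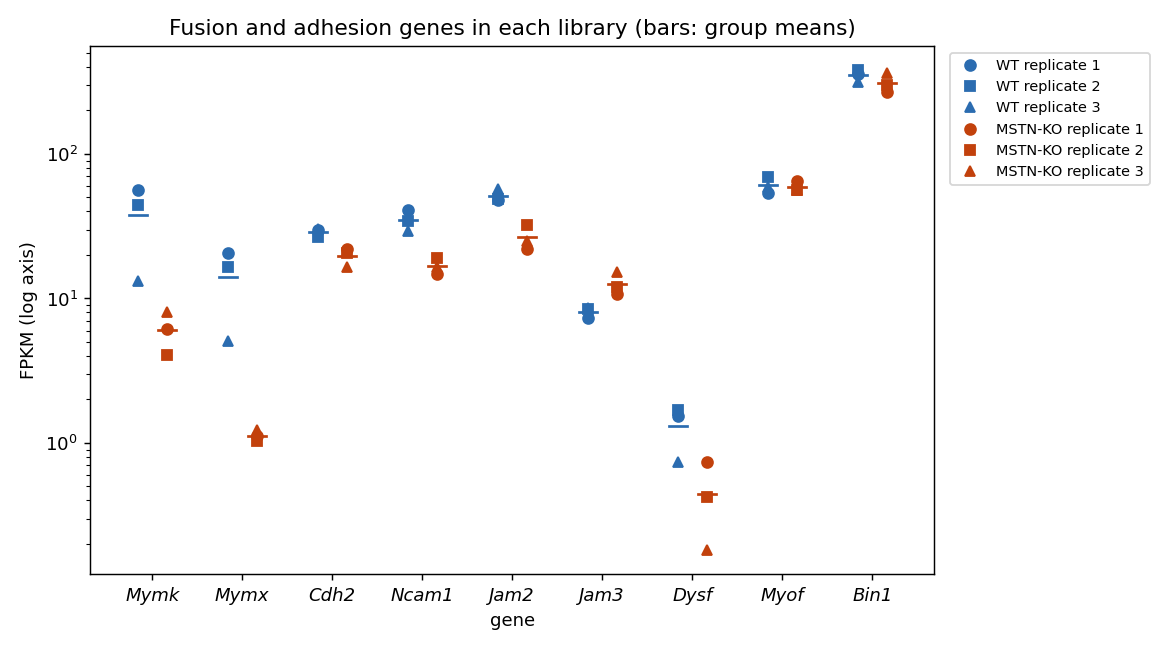
FPKM of each of the 9 genes (log axis) in the 3 WT and 3 MSTN-KO libraries, with 1 point per library and a short bar at each group mean. *Mymk* and *Mymx* were lower in every MSTN-KO library than in any WT library, with WT replicate 3 well under the other two WT libraries.

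The pair of fusion proteins had the largest differences. *Mymk* (chr2:27061636-27072179 in GRCm38) had levels of 56.5, 44.1 and 13.2 FPKM in WT (replicates 1, 2 and 3, here and throughout) and of 6.13, 4.08 and 8.05 FPKM in MSTN-KO. Every MSTN-KO library was under every WT library, and the lowest WT value was that of replicate 3. The log2 fold change of *Mymk* was -2.27 (SE 0.39, adjusted p = 0.00177), and its WT mean was 6.23 times its MSTN-KO mean. *Mymx* (chr17:45600971-45602102) was at 20.8, 16.6 and 5.11 FPKM in WT and at 1.12, 1.03 and 1.22 FPKM in MSTN-KO. The MSTN-KO libraries lay close together near 1 FPKM, and WT replicate 3 was again the lowest of its group. The log2 fold change of *Mymx* was -2.65 (SE 0.35, adjusted p = 0.000214), and the WT mean was 12.6 times the MSTN-KO mean. These are bulk libraries, in which fewer cells that express a gene and less of its RNA per cell cannot be told apart.

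WT replicate 3 stood apart in these 2 genes and in some genes of muscle differentiation. On the log2(FPKM + 1) scale, it was under the mean of WT replicates 1 and 2 by a difference of -1.84 for *Mymk* and -1.68 for *Mymx*. The corresponding difference was -1.74 for *Myog*, a transcription factor of myogenic differentiation, and -1.88 for *Myh3*, the embryonic myosin heavy chain. It was -2.37 for *Actc1*, an actin of striated muscle, -2.36 for *Ckm*, the muscle creatine kinase, and -1.64 for *Tnnt3*. The other muscle markers differed less, with -0.43 for *Des*, -0.29 for *Myod1*, -0.19 for *Pax7* and 0.01 for *Myf5*. *Mef2c*, under 1 FPKM in every library, differed by -0.02. The other fusion and adhesion genes differed less between the WT libraries on this scale, from -0.59 for *Dysf* to 0.23 for *Jam2*. *Dysf* is low enough that the 1 FPKM added shrinks its difference. As plain FPKM, the mean of WT replicates 1 and 2 was 2.18 times WT replicate 3 for *Dysf*. That ratio was 3.79 for *Mymk* and 3.66 for *Mymx*. The MSTN-KO mean was still under WT replicate 3, by a log2 difference of -1.05 for *Mymk* and -1.53 for *Mymx*. Without WT replicate 3, the log2 fold change was -2.88 for *Mymk* (adjusted p = 1.23e-06) and -3.21 for *Mymx* (adjusted p = 6.55e-08). In that fit, 5 of the 9 genes were called lower and 1 higher, beside 13% of all genes called in either direction. Without WT replicate 1, the log2 fold change was closer to 0, at -1.88 for *Mymk* (adjusted p = 0.0211 in limma) and -2.29 for *Mymx* (adjusted p = 0.00528).

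**Figure D2:**
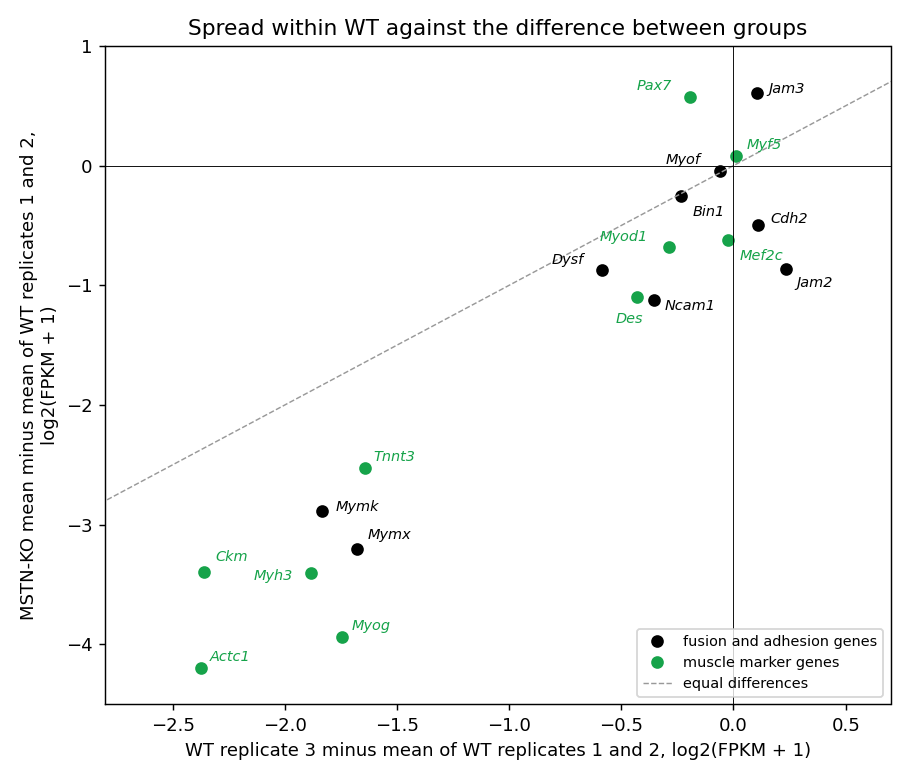
Difference of WT replicate 3 (horizontal axis) and of the MSTN-KO mean (vertical axis) from the mean of WT replicates 1 and 2, on the log2(FPKM + 1) scale, for the fusion and adhesion genes (black) and 10 muscle markers (green). Both axes share the same WT mean. *Mymk* and *Mymx* lie at the lower left with *Myog*, *Myh3*, *Actc1*, *Ckm* and *Tnnt3*, and all 7 are under the dashed line of equal differences.

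Most of the muscle markers tested were lower in MSTN-KO, as *Mymk* and *Mymx* were. Of 9 muscle markers tested, 7 were called lower in MSTN-KO, against 8.96% of all genes tested, and 1, *Pax7*, a factor of muscle stem cells, was called higher (log2 fold change 0.64, SE 0.20, adjusted p = 0.0415). *Myog* was at 175.3, 147.6 and 47.3 FPKM in WT and at 7.33, 10.2 and 11.6 FPKM in MSTN-KO. Its log2 fold change was -3.36 (SE 0.36, adjusted p = 3.98e-05). Of the 7, *Myh3* and *Ckm* passed the filter only through WT, where they were higher. *Myf5*, an early myogenic factor, was not called (adjusted p = 0.784). The FPKM of the 10 markers summed to 789.7 to 1276 in WT and to 447.4 to 544.0 in MSTN-KO. The 4 fibroblast markers with values summed to 182.2 to 251.4 FPKM in WT and to 242.4 to 250.5 FPKM in MSTN-KO, with 1 of 3 tested, *Dcn*, called lower. Of the adipocyte markers, the 2 tested, *Cebpa* and *Fabp4*, were called higher, against 8.78% of all genes tested. *Fabp4* passed the filter only through MSTN-KO, where it was higher. The sum of the 3 with values, most of it *Cebpa*, was 4.56 to 6.08 FPKM in WT and 16.4 to 18.4 FPKM in MSTN-KO. *Plin1* was listed at 0 in 5 of the 6 libraries. The part of these markers in the fusion genes' differences was not tested.

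The genes whose 6 values most resembled those of *Mymk* and *Mymx* were also muscle genes for the most part. Likeness was the root mean square difference of log2(FPKM + 1) values, each less its gene's mean, over 6 libraries and 10326 candidate genes, so it includes the difference between the groups. Nearest to *Mymk* were *Fgf21*, a secreted growth factor (0.251), *Atp2a1*, the calcium pump of fast muscle (0.256), and *Mymx* (0.283). Nearest to *Mymx* were *Fgf21* (0.215), *Myh3* (0.245) and *Ckm* (0.251). *Fgf21* was at 9.30, 9.99 and 2.20 FPKM in WT and at 0.476, 0.405 and 0.503 FPKM in MSTN-KO.

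The adhesion molecules differed less than the fusion proteins, and not all in 1 direction. *Ncam1* (chr9:49502136-49798925), a neural cell adhesion molecule that myoblasts also carry, was at 41.3, 34.2 and 29.1 FPKM in WT and at 14.8, 19.1 and 16.6 FPKM in MSTN-KO. The groups did not overlap, and the log2 fold change was -1.001 (SE 0.15, adjusted p = 0.000773), just beyond the limit for a DEG. The *Ncam1* value was within that limit without WT replicate 1 (-0.88), MSTN-KO replicate 1 (-0.92) or MSTN-KO replicate 3 (-0.9955) and with the length and GC correction (-0.94). *Cdh2* (chr18:16588877-16809246), which encodes N-cadherin, was at 29.6, 26.5 and 30.2 FPKM in WT and at 22.0, 20.7 and 16.4 FPKM in MSTN-KO. Its groups did not overlap either, and its log2 fold change was -0.53 (SE 0.14, adjusted p = 0.0207). The *Cdh2* call was lost without WT replicate 1 (adjusted p = 0.0570), without WT replicate 3 (adjusted p = 0.0613) and without MSTN-KO replicate 3 (adjusted p = 0.0638).

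The junctional adhesion molecules *Jam2* and *Jam3*, which encode proteins that bind each other across neighbouring cells, went in opposite directions. *Jam2* (chr16:84774123-84825928) was at 48.0, 48.9 and 57.2 FPKM in WT and at 22.1, 32.3 and 24.9 FPKM in MSTN-KO. All 3 MSTN-KO libraries were under all 3 WT libraries, and WT replicate 3 was here the highest of all. The log2 fold change of *Jam2* was -0.95 (SE 0.15, adjusted p = 0.00106). *Jam3* (chr9:27097384-27155421) was at 7.33, 8.45 and 8.56 FPKM in WT and at 10.7, 12.0 and 15.1 FPKM in MSTN-KO. Every MSTN-KO library was above every WT library, and the log2 fold change of *Jam3* was 0.57 (SE 0.15, adjusted p = 0.0225). This call was lost without WT replicate 1 (adjusted p = 0.0692), WT replicate 2 (adjusted p = 0.0662) or MSTN-KO replicate 3 (adjusted p = 0.0684). With each library scaled to a sum of 1000000, which moved the median of all genes by -0.25, the log2 fold change of *Jam3* was 0.31 (adjusted p = 0.132).

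**Figure D3:**
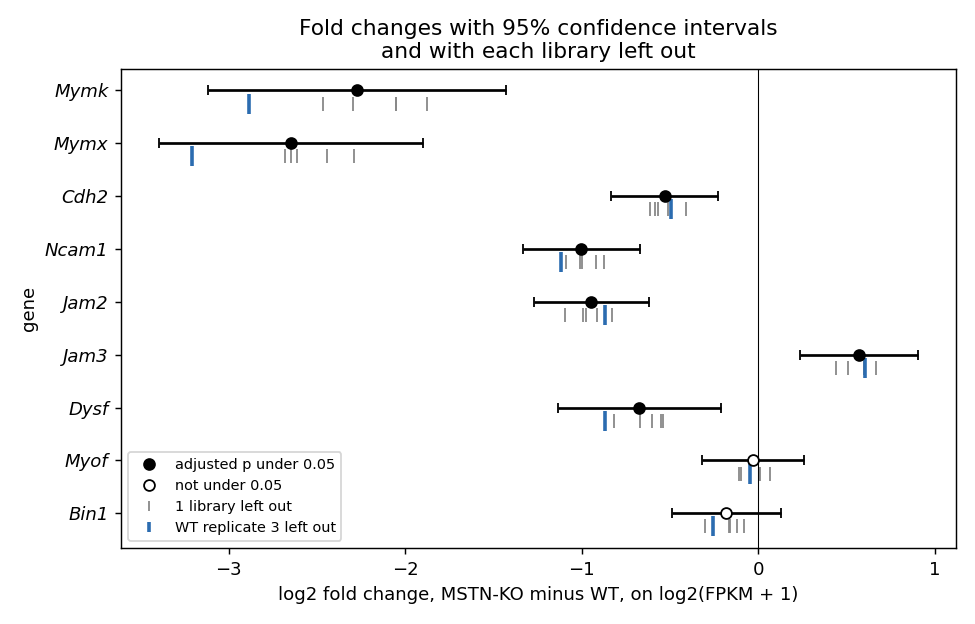
Log2 fold change (MSTN-KO minus WT, on log2(FPKM + 1)) of each gene with its 95% confidence interval, filled where the adjusted p was under 0.05. Ticks under each interval give the value with 1 library left out, in blue for WT replicate 3. *Mymk* and *Mymx* moved further from 0 without that library, to -2.88 and -3.21, and closer to 0 without WT replicate 1, to -1.88 and -2.29.

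The ferlins were at very different levels. *Myof* (chr19:37899036-38043577), the myoferlin gene, was at 54.0, 69.3 and 58.7 FPKM in WT and at 65.2, 56.0 and 56.6 FPKM in MSTN-KO, and the groups overlapped. Its log2 fold change was -0.03 (SE 0.13, adjusted p = 0.902), with a 95% confidence interval from -0.32 to 0.26. *Dysf* (chr6:84008590-84211060), the dysferlin gene, was at 1.53, 1.70 and 0.7393 FPKM in WT and at 0.7396, 0.420 and 0.181 FPKM in MSTN-KO. WT replicate 3 and MSTN-KO replicate 1 were at nearly the same value, so the groups touched, and the other MSTN-KO libraries were under all of WT. The log2 fold change of *Dysf* was -0.67 (SE 0.21, adjusted p = 0.0454), and its WT mean was 2.95 times its MSTN-KO mean. With 0.1 FPKM added in place of 1, the log2 fold change was -1.44 (adjusted p = 0.0485), which made *Dysf* a downregulated DEG. With 1 FPKM added, the call of *Dysf* as lower was lost without WT replicate 1 (adjusted p = 0.152) or WT replicate 2 (0.175). It was also lost without MSTN-KO replicate 2 (0.0576) or MSTN-KO replicate 3 (0.156).

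*Bin1* (chr18:32377230-32435737) was the most abundant of the 9 genes, with 358.8, 381.3 and 314.8 FPKM in WT and 268.5, 301.7 and 365.4 FPKM in MSTN-KO. The groups overlapped, and MSTN-KO replicate 3 was above 2 of the WT libraries. Its log2 fold change was -0.18 (SE 0.14, adjusted p = 0.404), with a 95% confidence interval from -0.49 to 0.13. *Bin1* was called lower under quantile normalization (log2 fold change -0.35, adjusted p = 0.0391) and with each library scaled to a sum of 1000000 (-0.47, adjusted p = 0.0178). Exons of *Ncam1*, *Jam3*, *Dysf* and *Bin1* overlap noncoding genes on the other strand in GENCODE M21, and whether the authors counted by strand is not given in the sources used here.

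Since FPKM is per length, levels of different genes can be set in order. In WT, the mean level ran from *Bin1* (351.6 FPKM) through *Myof*, *Jam2*, *Mymk*, *Ncam1*, *Cdh2*, *Mymx* and *Jam3* to *Dysf* (1.32 FPKM). Between neighbours in the WT order, the ranges of *Myof* and *Jam2*, *Jam2* and *Mymk*, *Mymk* and *Ncam1*, *Ncam1* and *Cdh2*, and *Mymx* and *Jam3* overlapped. In MSTN-KO, *Mymk* ranked 7 instead of 4 and *Mymx* 8 instead of 7, after *Jam3*. There only the ranges of *Cdh2* and *Ncam1*, and of *Ncam1* and *Jam3*, overlapped between neighbours. The WT ranks are those of the means. In WT replicate 3 alone, *Mymx* (5.11 FPKM) was already under *Jam3* (8.56 FPKM). In the same library, *Mymk* (13.2 FPKM) was under *Ncam1* (29.1 FPKM) and *Cdh2* (30.2 FPKM).

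Ratios within 3 pairs of related genes were compared between the groups with an exact two-sided permutation test over all 20 regroupings, which cannot give a p under 0.1. The FPKM of *Jam2* was 6.56, 5.79 and 6.68 times that of *Jam3* in the WT libraries and 2.06, 2.70 and 1.65 times in the MSTN-KO libraries. On the log2 scale with 1 added to each FPKM, the *Jam2*/*Jam3* ratio differed by -1.52 between the groups, which did not overlap (p = 0.1 in the exact test, 0.15 adjusted over the 3 pairs). *Jam2* was lower and *Jam3* higher in every MSTN-KO library than in any WT library. The separation of their ratio, and its exact p, follow from that and add no separate result. The *Dysf*/*Myof* log2 ratio was -4.75 ± 0.33 in WT and -5.39 ± 0.19 in MSTN-KO (SD, n = 3; exact permutation p = 0.1, adjusted 0.15), without overlap. The FPKM of *Mymx* was 0.368, 0.378 and 0.386 times that of *Mymk* in the WT libraries and 0.182, 0.253 and 0.152 times in the MSTN-KO libraries, and these plain ratios did not overlap. Whether the groups separated on the log2 scale depended on the FPKM added. With 1 FPKM added, the *Mymx*/*Mymk* log2 ratio was -1.32 ± 0.093 in WT and -1.70 ± 0.35 in MSTN-KO (SD, n = 3; exact permutation p = 0.3, adjusted 0.3), and the values overlapped. With 0.1 FPKM added, the *Mymx*/*Mymk* difference was -0.89, against -0.38 with 1 FPKM, and its exact permutation p was 0.1, the lowest possible. The *Dysf*/*Myof* difference was -1.41 with 0.1 FPKM added, against -0.64.

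**Figure D4:**
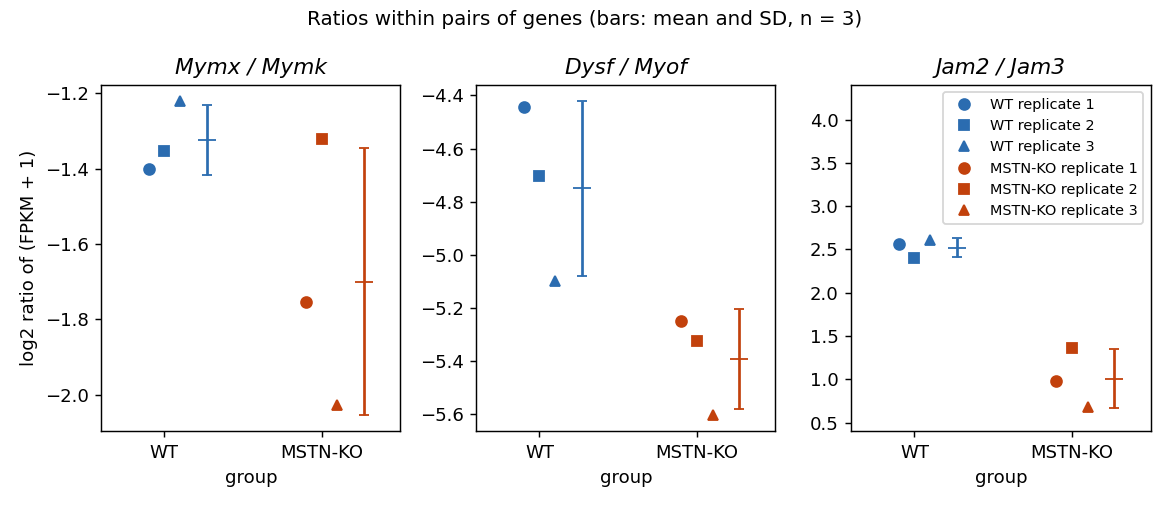
Log2 ratio of (FPKM + 1) within each of 3 gene pairs, with 1 point per library and the mean and SD of 3 libraries beside the points. The vertical axes differ between panels and do not start at 0. The *Jam2*/*Jam3* ratio was lower in every MSTN-KO library than in any WT library, and the *Mymx*/*Mymk* ratios overlapped on this scale, with 1 FPKM added, but not as plain FPKM ratios.

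Beyond these 9 genes, 6 lists of other genes of fusion, adhesion and membrane repair were described. Of 94 genes listed, 83 had values and 62 were tested, and 14 were called lower and 5 higher in MSTN-KO, 30.6% beside 17.7% of all genes tested. These lists were also chosen with earlier results of these data known. The shares here and for each list below are therefore descriptions, and no list was tested as a set. Of the 19 called, 4 passed the filter only through the group where they were higher: *Trim72*, *Cxadr* and *Cav3* through WT and *Sh3gl3* through MSTN-KO. With a filter on the mean of the 6 libraries, 12 of 58 tested were called lower and 4 higher. The median log2 fold change of the 62 was -0.19. Without WT replicate 3, 13 were called lower and 2 higher. The count of genes called higher was 3 without WT replicate 1, 2 without WT replicate 2, 2 without MSTN-KO replicate 1 and 2 without MSTN-KO replicate 3.

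Among the surface proteins of fusion, 3 of 10 tested were lower and 1 was higher, 40% called beside 17.7% of all genes tested. *Tmem182*, a membrane protein of muscle cells, was at 1.85 to 2.65 FPKM in WT and at 0.418 to 1.27 FPKM in MSTN-KO (log2 fold change -0.96, adjusted p = 0.00631). The other 2 that fell were *Itgb1*, the integrin beta1 chain (log2 fold change -0.66, adjusted p = 0.0113), and the tetraspanin *Cd82* (-0.55, adjusted p = 0.0253). *Il4ra*, which encodes the interleukin-4 receptor alpha chain, rose from 9.88 to 13.7 FPKM in WT to 19.7 to 21.6 FPKM in MSTN-KO (log2 fold change 0.80, adjusted p = 0.00249). The abundant tetraspanins *Cd9* and *Cd81* were not called, with log2 fold changes of 0.15 and -0.01.

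Of the signalling genes of fusion, 2 of 18 tested were lower and 1 was higher, a share of 16.7% called that is near the 17.7% of all genes tested. The adaptor gene *Crkl* was at 11.7 to 12.8 FPKM in WT and at 5.61 to 6.99 FPKM in MSTN-KO (log2 fold change -0.89, adjusted p = 0.00104). *Cdon*, a surface receptor that promotes myogenic differentiation, had a log2 fold change of -0.75 (adjusted p = 0.0123). *Arhgap10*, the 1 that rose, had a log2 fold change of 0.43 (adjusted p = 0.0364). The GTPase genes *Rac1* and *Cdc42* were not called, with log2 fold changes of -0.22 and -0.49.

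None of the 4 cadherin and catenin genes tested was called in limma, beside 17.7% of all genes tested. With 4 genes, this count cannot be told apart from that share. Of the 4, 1, *Jup*, had an unadjusted p under 0.05. *Jup*, which encodes plakoglobin, had a log2 fold change of -0.40 (adjusted p = 0.0516), and *Ctnnb1*, which encodes beta-catenin, one of -0.18 (adjusted p = 0.318). Among the immunoglobulin-type adhesion molecules, 4 of 9 tested were lower and none was higher, 44.4% called beside 17.7% of all genes tested. All 9 log2 fold changes were below 0, against 50.1% of all genes tested. *F11r*, the gene of another junctional adhesion molecule, was at 13.8, 15.1 and 12.3 FPKM in WT and at 1.41, 1.73 and 2.56 FPKM in MSTN-KO. The groups lay far apart, WT replicate 3 was near the other WT libraries, and the log2 fold change of *F11r* was -2.36 (SE 0.17, adjusted p = 1.15e-06). *Cxadr* (log2 fold change -0.97, adjusted p = 0.00410), *L1cam* (-0.69, adjusted p = 0.00739) and *Pvr* (-0.51, adjusted p = 0.0189) also fell, of which *Cxadr* was tested only through its WT values.

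In the ferlin and membrane repair list, 3 of 13 tested were lower and none was higher, a share of 23.1% called beside 17.7% of all genes tested. Of the 3 called, 2, *Trim72* and *Cav3*, passed the filter only through WT, where they were higher, so the share rests mostly on them. *Trim72*, which encodes the membrane repair protein MG53, was at 5.84, 5.71 and 2.01 FPKM in WT and at 0.168, 0.275 and 0.0751 FPKM in MSTN-KO. Its log2 fold change was -2.14 (SE 0.27, adjusted p = 0.000154), with WT replicate 3 again the lowest of WT, and the gene was tested only through its WT values. *Cavin4*, a muscle protein of caveolae, had a log2 fold change of -0.88 (adjusted p = 0.000740). *Cav3*, the muscle caveolin gene, was at 0.473 to 1.18 FPKM in WT and listed at 0 in all 3 MSTN-KO libraries (adjusted p = 0.0140), so no fold is given. It was tested only because WT replicate 2 reached 1.18 FPKM. The most abundant genes of this list, *S100a11*, *S100a10* and *Anxa2*, were not called.

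Of the BAR proteins and their partners, which bend or cut membranes, 2 of 8 tested were lower and 3 were higher. That was 62.5% called, beside 17.7% of all genes tested. *Sh3glb1* (log2 fold change -0.78, adjusted p = 0.00224) and *Bin3*, a relative of *Bin1* (-0.41, adjusted p = 0.0458), fell. *Dnm3*, a dynamin gene, was at 0.580 to 1.52 FPKM in WT and at 1.51 to 3.89 FPKM in MSTN-KO, with ranges that overlapped slightly (log2 fold change 0.86, adjusted p = 0.0289). *Sh3gl3* (0.58, adjusted p = 0.0414) and *Sh3glb2* (0.55, adjusted p = 0.0228) rose as well, *Sh3gl3* being tested only through its MSTN-KO values.

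**Figure D5:**
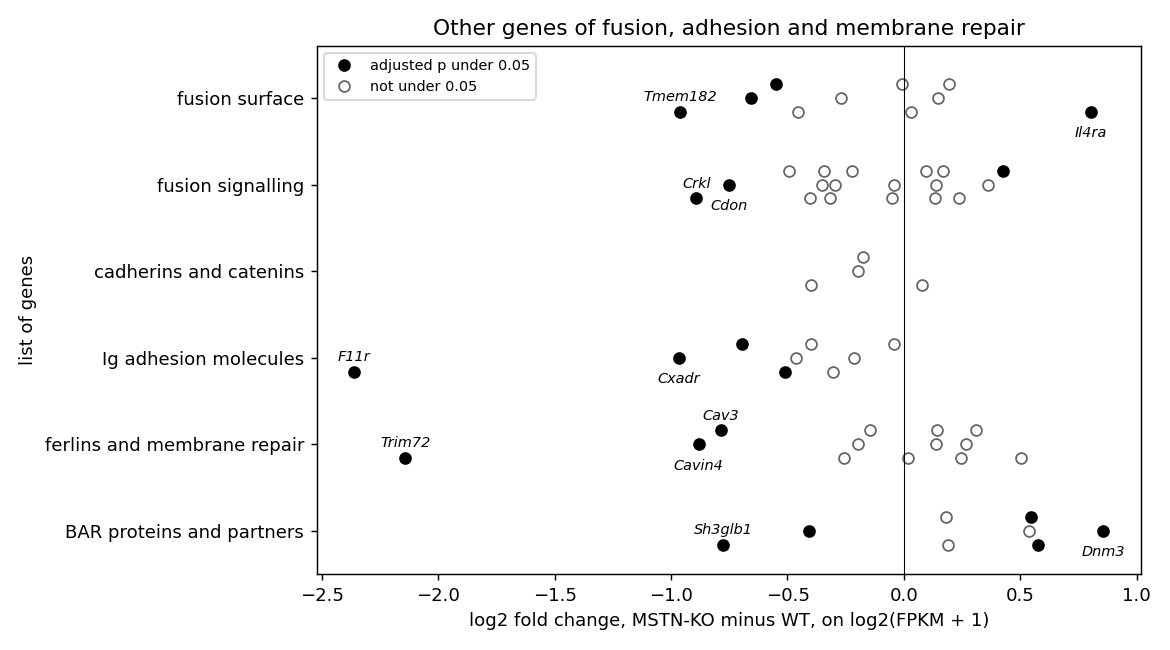
Log2 fold change (MSTN-KO minus WT, on log2(FPKM + 1)) of the 62 tested genes of the 6 other lists, 1 point per gene, filled where the adjusted p was under 0.05. The value of *Cav3*, listed at 0 in MSTN-KO, depends on the 1 FPKM added, and the vertical offset within a list separates the points and has no meaning. *F11r* and *Trim72* had the lowest values, -2.36 and -2.14.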

How the data were processed

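RNA-seq libraries of 3 WT and 3 MSTN-KO C2C12 samples were grouped by their labels. The authors' sequencer was an Illumina HiSeq, and they deposited FPKM per gene, 1 library per file, without pooling. The submitters' processing notes name Bowtie 0.12.2 and mm8. The annotation and filters are not given in the sources used here. GENCODE M21 (GRCm38) served for names, positions, gene lengths and GC content (99.3% of genes).

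log2(FPKM + 1) was fitted with limma 3.58.1 (R 4.3.3, eBayes with trend, group only) for genes that reached 1 FPKM in 1 or more libraries, and p-values were Benjamini-Hochberg adjusted over all of them. Scripts were tested on simulated data. The genes and lists were chosen with earlier results of these data known. From each list, at most the 4 largest called rises, 4 largest called falls and 4 most abundant uncalled genes could be named. Alternatives covered pseudocount, filter, trend, scaling, length and GC content (mgcv 1.9.3), replicate block and left-out libraries. Permutation tests and plots used Python 3.11.15, scipy 1.17.1 and matplotlib 3.10.9.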

Additional observations from a re-analysis of the deposited data

How the results depend on the processing

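*Mymk*, *Mymx*, *Ncam1* and *Jam2* kept their direction and call under all 16 alternatives, with a highest adjusted p of 0.0311 for *Mymk*. The count of the 9 genes called lower was 4 to 6 with 1 library left out and 5 to 7 otherwise, and the count of downregulated DEGs was 2 to 4. The count called higher was 0 with no filter on low values and 0 with a sum of 1000000 per library, and 0 to 1 with 1 library left out. *Dysf* also lost its call with no filter (adjusted p = 0.0721), quantile normalization (0.110) and scaling by the percentile 75 (0.0541), and a filter on the mean removed it. *Jam3* lost its call with no filter (0.0567). *Myof* turned to a log2 fold change of 0.0536 with the length and GC correction, with and without the replicate block, and lay between -0.108 and 0.0695 with 1 library left out, never called. The median log2 fold change of the 9 genes was -0.97 with a pseudocount of 0.1 and -0.87 to -0.54 with 1 library left out.

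In the other lists, genes called lower numbered 30 with a sum of 1000000 per library and 10 to 17 with 1 library left out. Genes called higher numbered 3 with no filter, 3 with scaling by the percentile 75, 1 with a sum of 1000000 and 2 to 4 with 1 library left out. A sum of 1000000 moved the share of all calls that were lower from 50.5% to 87.1%. Over all genes, 1923 were called, against 1029 without WT replicate 2 and 1206 without MSTN-KO replicate 1, and against 2435 without MSTN-KO replicate 2, 2457 with the length and GC correction and 2717 with a sum of 1000000. The causes were not tested. Libraries with the same replicate number did not deviate together (r of -0.0153, -0.128 and -0.142 across genes), so the numbers were not taken as pairs. With the replicate block, 1940 genes were called, the same 6 of the 9 genes were called lower and *Jam3* higher, so the block changed no call among them. In the pair ratios, the block allows no p under 0.25.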

Other observations

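RefSeq promoter windows (GRCm38.p6, 250 bases before the start) were at hand for 2 of the 9 genes, with 2 windows for *Dysf* and 1 for *Myof*. None of these windows held the E-box CANNTG, the E-box forms CAGCTG and CAGGTG, which are also CANNTG matches, the TEAD motif CATTCC or the MEF2 motif on either strand. Of 32851 such windows, 66.2% held CANNTG, 13.0% CAGCTG, 17.2% CAGGTG, 12.6% CATTCC and 2.92% the MEF2 motif.

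The adipocyte marker *Cebpa*, which encodes a transcription factor of fat cells and other tissues, was at 4.30 to 5.76 FPKM in WT and at 15.2 to 17.5 FPKM in MSTN-KO. Its log2 fold change was 1.47 (SE 0.15, adjusted p = 2.33e-05 in limma). *Fabp4*, a fatty acid binding protein gene, was at 0.147 to 0.324 FPKM in WT and at 0.919 to 1.76 FPKM in MSTN-KO, and was tested only through its MSTN-KO values (log2 fold change 0.83, SE 0.19, adjusted p = 0.00924).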
